A study of Mus musculus with 9 samples.

Results

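Chemokines are small secreted proteins that steer the movement of leukocytes, and chemokine receptors are the G protein-coupled receptors that read them. The genes were found by symbol in the array's probe annotation, as the CC, CXC, CX3C and XC chemokines (Ccl, Cxcl, Cx3cl1 and Xcl1 with their numbers), the Ccr, Cxcr and Cx3cr1 receptors, and the atypical receptors Ackr1 to Ackr4. This gave 51 of the 18193 genes on the array, 32 of them ligands and 19 receptors. Each gene was read from 1 probe set: among those annotated with its symbol alone, the brightest by mean of the 9 arrays. Of the 51 genes, 15 had a mean over 6 in at least 1 group and are described singly. The other 36 are given by their range and counts. The level of 6 is a filter on log2 values and draws no line between expressed and silent genes. A gene that is bright in 1 group alone passes it because of that group, so counts below are over all 51 genes.

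Expression was measured in 3T3-L1, a line of mouse fibroblasts able to become fat cells, on 9 single-colour arrays in 3 groups of 3. Preadipocytes were the undifferentiated cells. Adipocytes had been induced with insulin at 10 µg/ml, dexamethasone at 1 µM and IBMX, which blocks phosphodiesterases, at 0.5 mM, then detached and electroporated on day 14 with either a non-targeting control siRNA or PPAR gamma siRNA. PPAR gamma is a nuclear receptor on which fat cell identity depends. The labels describe the hormones and the electroporation for adipocytes only, so these cannot be told apart from differentiation in any comparison with them, and the 2 or 3 nmol of siRNA is not assigned to arrays in the labels. All groups come from 1 cell line, the series calls the replicates technical, and the p-values therefore measure only the spread between these samples.

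In adipose tissue, chemokines are made by preadipocytes, fat cells, vessels and immune cells, and Ccl2 in particular is known for drawing monocytes into inflamed fat. CC chemokines act mainly on monocytes, lymphocytes and eosinophils, and the CXC chemokines of the Cxcl1 and Cxcl5 type act on neutrophils. Many of the genes are switched on by NF-kappaB and AP-1 after stimulation with interleukin-1, tumour necrosis factor or bacterial products. Atypical receptors bind chemokines without coupling to G proteins, and several of these receptors remove chemokines from the medium.

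The promoter stretches of 4 genes are shown because they belong to members with contrasting changes: Ackr3, which had the second-largest fall in adipocytes among the 51, Ccl9, which stood highest with PPAR gamma siRNA, Cxcl1, whose probe sets differed, and Cxcl10, which fell with the siRNA. Each runs from 250 bases before to 50 bases after the RefSeq gene start, 5′ to 3′, in build GRCm38.p6. Capitals mark letters matching, on either strand, an NF-kappaB-like motif (GGGA and TTCC with any 2 bases between), an AP-1 motif (TGANTCA) or a TATA box (TATAAA).
Ackr3 promoter, chr1:90203730-90204029, plus strand: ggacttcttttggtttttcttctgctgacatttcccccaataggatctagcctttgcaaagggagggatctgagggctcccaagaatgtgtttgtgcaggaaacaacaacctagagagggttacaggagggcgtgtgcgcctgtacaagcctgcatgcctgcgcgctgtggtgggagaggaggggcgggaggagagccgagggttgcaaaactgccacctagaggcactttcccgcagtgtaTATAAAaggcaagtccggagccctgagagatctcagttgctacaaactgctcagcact
Ccl9 promoter, chr11:83578587-83578886, minus strand: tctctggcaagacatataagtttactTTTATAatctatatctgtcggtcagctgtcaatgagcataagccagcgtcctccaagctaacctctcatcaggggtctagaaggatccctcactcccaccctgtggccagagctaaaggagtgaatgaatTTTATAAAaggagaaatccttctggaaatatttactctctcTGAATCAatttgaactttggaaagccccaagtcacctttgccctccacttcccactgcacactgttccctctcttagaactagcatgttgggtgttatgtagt
Cxcl1 promoter, chr5:90890995-90891294, plus strand: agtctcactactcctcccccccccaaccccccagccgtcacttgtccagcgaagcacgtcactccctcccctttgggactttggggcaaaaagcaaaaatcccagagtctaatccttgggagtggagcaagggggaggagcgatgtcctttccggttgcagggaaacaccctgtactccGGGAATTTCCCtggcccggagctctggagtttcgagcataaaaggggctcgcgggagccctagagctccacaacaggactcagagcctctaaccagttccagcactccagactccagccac
Cxcl10 promoter, chr5:92348840-92349139, minus strand: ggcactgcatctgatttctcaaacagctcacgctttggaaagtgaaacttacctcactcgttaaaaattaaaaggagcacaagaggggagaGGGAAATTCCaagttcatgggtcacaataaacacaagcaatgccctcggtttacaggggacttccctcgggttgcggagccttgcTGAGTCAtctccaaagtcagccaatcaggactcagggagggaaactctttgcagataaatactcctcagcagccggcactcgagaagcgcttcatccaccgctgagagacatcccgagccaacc
Of the 15 genes, 10 had a promoter sequence in the RefSeq table used. The NF-kappaB-like letters were found in 2 of the 10, Cxcl1 and Cxcl10, and in 1.47% of all 32851 promoter windows of 300 bases. Counted from the gene start, with bases before it negative, they began at -71 in Cxcl1, where a reverse match from -70 overlapped the forward one, and at -159 in Cxcl10. The AP-1 letters were found in Ccl9 and Cxcl10 (7.81% of all windows), and TATAAA in 6 of the 10 (13.6% of all windows). In Ccl9 the reverse TATAAA match from -94 overlapped the forward one from -92. A direct repeat of AGGTCA with any 1 base between the copies, the kind read by PPAR gamma with its partner RXR, was found in none of the 10 windows and in 0.0396% of all windows. A match describes letters in this window and shows no binding.

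Pparg, the target of the siRNA, stood at 8.22 ± 0.12 in preadipocytes, 12.79 ± 0.12 with control siRNA and 9.59 ± 0.05 with PPAR gamma siRNA (SD, n = 3, log2 units as throughout). Array medians lay between 4.82 and 4.89. RNA integrity was followed by the excess of the 3′ Actb probe set over the 5′ one, which ranged from 0.23 to 0.36 in preadipocytes, from 0.91 to 1.30 with control siRNA and from 0.54 to 1.25 with PPAR gamma siRNA. This excess separated preadipocytes from both adipocyte groups. Between the siRNAs its means differed (1.04 with control siRNA and 0.79 with PPAR gamma siRNA), but the arrays overlapped. With it as a covariate, 9 members were lower in control siRNA adipocytes than in preadipocytes and 10 higher with PPAR gamma siRNA than with control siRNA, against 9 and 11 without it. The spike-in BioB-5 lay between 7.08 and 7.60 in preadipocytes and between 7.95 and 8.73 in all adipocyte arrays, and its part in comparisons with preadipocytes was not tested. Of 9 adipocyte markers, 8 rose in differentiation and 8 fell with PPAR gamma siRNA, and of 11 preadipocyte and fibroblast markers 10 fell and 10 rose. Their mean levels per array were 5.62 to 5.82, 12.12 to 12.13 and 9.78 to 9.89 for the adipocyte markers in preadipocytes, control siRNA and PPAR gamma siRNA adipocytes, and 11.43 to 11.60, 9.33 to 9.51 and 10.94 to 11.36 for the fibroblast markers. The 9 adipocyte markers include Pparg, the target of the siRNA, which is among the 8 that fell with it and enters their mean levels. Of 12 lymphocyte and granulocyte markers 4 rose in differentiation and 1 fell with the siRNA, and of 12 endothelial markers 2 rose and 1 fell in differentiation. The 1 that fell with the siRNA was S100a8, with group means of 3.71 in preadipocytes, 7.68 with control siRNA and 4.45 with PPAR gamma siRNA. Among all genes 27.1% rose and 24.7% fell in differentiation, and 19.9% rose and 16.1% fell with the siRNA. The part of a changed share of cell types in the results was not tested.

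Cxcl5, Ackr3, Ccl7 and Ccl2 fell the most among the members in control siRNA adipocytes against preadipocytes, and Ccl9, Cxcl5 and Ccl6 rose the most with PPAR gamma siRNA against control siRNA. In control siRNA adipocytes, 9 of the 51 genes were lower than in preadipocytes, where 24.7% of all genes were, and 8 were higher, where 27.1% of all genes were (limma, adjusted p under 0.05). As a share the 9 are 17.6% of the members, below the share among all genes. Of those 9, 8 fell at least 2-fold (10.6% of all genes), and the largest of the 8 rises was the 1.73-fold one of Ackr2 (at least 2-fold higher in 8.83% of all genes). The median change of the 51 was 0.13, against 0.09 for all genes. With PPAR gamma siRNA, 11 genes were higher than with control siRNA (19.9% of all genes) and 3 were lower (16.1% of all genes). Of the 11, 8 rose at least 2-fold (5.68% of all genes), and none of the 3 lower genes fell 2-fold, the largest change being -0.85 of Cxcl10 (4.61% of all genes were at least 2-fold lower). The median of the 51 was -0.03 against -0.01. Compared with preadipocytes, PPAR gamma siRNA adipocytes had 6 members lower (16.9% of all genes) and 5 higher (19.6% of all genes). Of the 6, 5 were at least 2-fold lower (5.01% of all genes), and of the 5, 2 were at least 2-fold higher (4.29% of all genes). The comparisons share groups pairwise, so a low value in control siRNA arrays enters both of the first 2. The count of 8 higher genes in differentiation became 5 without any 1 of preadipocytes 1, 2 or 3 or control siRNA 2 or 3, and 4 with the Actb difference as a covariate, of which only 1 was among the 8. The count of 3 lower genes with PPAR gamma siRNA became 1 without any 1 of preadipocytes 1, 2 or 3, control siRNA 3 or PPAR gamma siRNA 3.

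**Figure D1:**
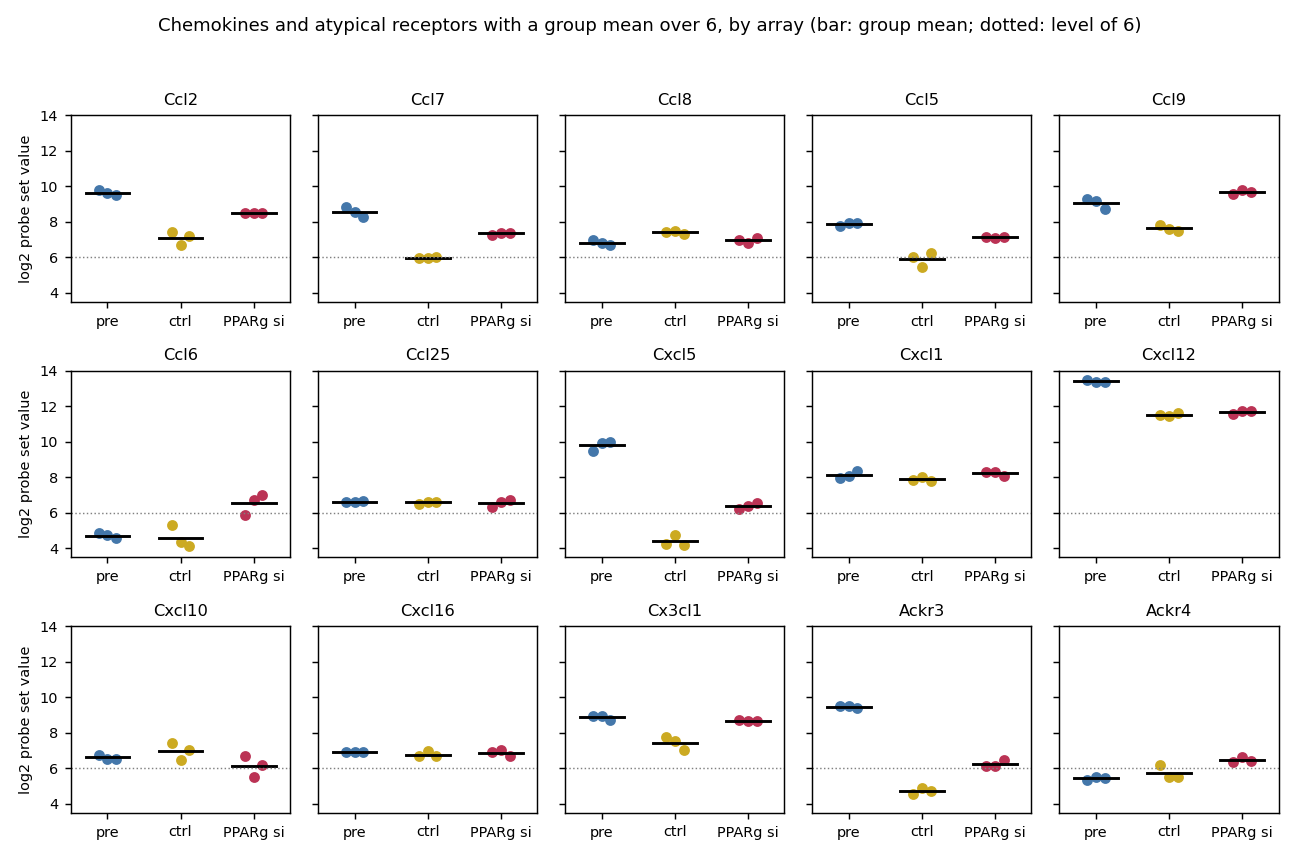
Values of the 15 described genes on each array (points, log2 probe set value on the vertical axis) in preadipocytes (pre), control siRNA adipocytes (ctrl) and PPAR gamma siRNA adipocytes (PPARg si), with group means as bars and the level of 6 dotted. Cxcl5 went from a mean of 9.82 to 4.40 and 6.38, while Ccl25 stayed between group means of 6.58 and 6.64.

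Ccl2 and Ccl7, both monocyte chemoattractants that act through the receptor Ccr2, fell in differentiation and rose with PPAR gamma siRNA. Ccl2 read 9.79, 9.61 and 9.51 in the 3 preadipocyte arrays, 7.43, 6.70 and 7.21 with control siRNA, and 8.50, 8.53 and 8.50 with PPAR gamma siRNA. The 3 groups did not overlap, with preadipocytes highest and control siRNA lowest. Ccl2 fell by 2.52 ± 0.16 in differentiation (SE, adjusted p = 7.32e-08), a 5.76-fold drop, and rose by 1.40 ± 0.16 with PPAR gamma siRNA (adjusted p = 2.70e-05). It stayed 1.13 ± 0.16 below preadipocytes (log2 change -1.13, adjusted p = 0.00016). Ccl7 read 8.83, 8.59 and 8.28 in preadipocytes, 5.97, 5.99 and 6.02 with control siRNA, and 7.28, 7.39 and 7.38 with PPAR gamma siRNA. Its groups did not overlap either and stood in the same order. The changes of Ccl7 were -2.57 ± 0.12 in differentiation (adjusted p = 7.67e-09), 1.35 ± 0.12 with PPAR gamma siRNA (adjusted p = 4.73e-06) and -1.21 ± 0.12 against preadipocytes (adjusted p = 1.31e-05).

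Ccl8, another monocyte chemoattractant protein, rose in differentiation and fell with PPAR gamma siRNA. It read 6.99, 6.80 and 6.69 in preadipocytes, 7.46, 7.49 and 7.31 with control siRNA, and 7.00, 6.83 and 7.11 with PPAR gamma siRNA. The control siRNA arrays were the highest and overlapped neither other group. Ccl8 rose by 0.59 ± 0.11 in differentiation (adjusted p = 0.000662), a call lost with the Actb difference as a covariate (change 0.44, adjusted p = 0.0855). It fell by 0.44 ± 0.11 with PPAR gamma siRNA (adjusted p = 0.00804).

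Ccl5, which draws T cells and monocytes, fell and rose in the same comparisons as Ccl2. It read 7.78, 7.93 and 7.97 in preadipocytes, 6.05, 5.48 and 6.25 with control siRNA, and 7.17, 7.08 and 7.15 with PPAR gamma siRNA. No 2 groups overlapped, and the spread was widest with control siRNA, at an SD of 0.40. The changes were -1.97 ± 0.16 in differentiation (adjusted p = 8.73e-07), 1.21 ± 0.16 with PPAR gamma siRNA (adjusted p = 0.000114) and -0.76 ± 0.16 against preadipocytes (adjusted p = 0.00338).

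Ccl9 and Ccl6, related mouse chemokines that act through Ccr1, rose with PPAR gamma siRNA to levels above preadipocytes. Ccl9 read 9.28, 9.16 and 8.74 in preadipocytes, 7.82, 7.60 and 7.48 with control siRNA, and 9.56, 9.81 and 9.70 with PPAR gamma siRNA. Its 3 groups did not overlap. Ccl9 fell by 1.43 ± 0.14 in differentiation (adjusted p = 5.35e-06) and rose 4.16-fold with PPAR gamma siRNA (log2 change 2.06 ± 0.14, adjusted p = 6.11e-07). The siRNA rise was the 178th largest of the 18193 genes. PPAR gamma siRNA exceeded preadipocytes by 0.63 ± 0.14 (adjusted p = 0.00542), but a second Ccl9 probe set put this difference at 0.39 ± 0.24 (adjusted p = 0.261). With the Actb difference as a covariate the same difference was 0.58 (adjusted p = 0.0545).

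Ccl6 read 4.87, 4.74 and 4.56 in preadipocytes. It read 5.31, 4.36 and 4.17 with control siRNA and 5.88, 6.73 and 7.00 with PPAR gamma siRNA. The PPAR gamma siRNA arrays lay above all 6 others, and the preadipocyte and control siRNA arrays overlapped. Ccl6 rose by 1.93 ± 0.30 with PPAR gamma siRNA against control siRNA (adjusted p = 0.000429) and by 1.81 ± 0.30 against preadipocytes (adjusted p = 0.000706), while the difference of -0.11 ± 0.30 in differentiation did not pass (adjusted p = 0.786). Another, dimmer Ccl6 probe set rose by 0.63 ± 0.19 with the siRNA (adjusted p = 0.0286), and the mean of both rose by 1.28. Its spread was the largest among the CC ligands, with SDs of 0.61 and 0.58 in the adipocyte groups.

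Ccl6 and Ccl9 are also made by macrophages. Of 13 measured macrophage and monocyte markers, 2 rose and 1 fell in differentiation, where 27.1% and 24.7% of all genes did. With PPAR gamma siRNA 2 of the 13 rose, where 19.9% of all genes did: Cd14, a bacterial lipopolysaccharide receptor (1.78 ± 0.10, adjusted p = 8.91e-08), and the lysosomal protein Cd68 (1.20 ± 0.22, adjusted p = 0.00125). The mean over the 13 ranged from 4.16 to 4.24 in preadipocytes, 4.36 to 4.41 with control siRNA and 4.53 to 4.81 with PPAR gamma siRNA. The pan-leukocyte marker Ptprc had group means of 3.24, 3.36 and 3.46, and the macrophage marker Adgre1 had 3.42, 3.85 and 3.67, all under the array medians. Other markers were brighter: of the 13, 2 had a mean over 6 in preadipocytes, 2 with control siRNA and 3 with PPAR gamma siRNA. Among them Csf1r had group means of 6.05, 6.15 and 6.06. The part of other cells in the result was not tested, and in bulk RNA fewer cells of a type and less RNA per cell cannot be told apart.

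Ccl25, which draws T cells to thymus and gut through Ccr9, passed the test in none of the comparisons on the chosen probe set (adjusted p = 0.712, 0.948 and 0.687, all with an unadjusted p over 0.05). Its group means were 6.64 ± 0.03, 6.59 ± 0.06 and 6.58 ± 0.20 (SD, n = 3), and all 3 pairs of groups overlapped. The 95% confidence interval of the differentiation change ran from -0.28 to 0.17, and that of the siRNA change from -0.24 to 0.21. On a second Ccl25 probe set, expression rose by 0.38 ± 0.12 in differentiation (adjusted p = 0.0231).

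**Figure D2:**
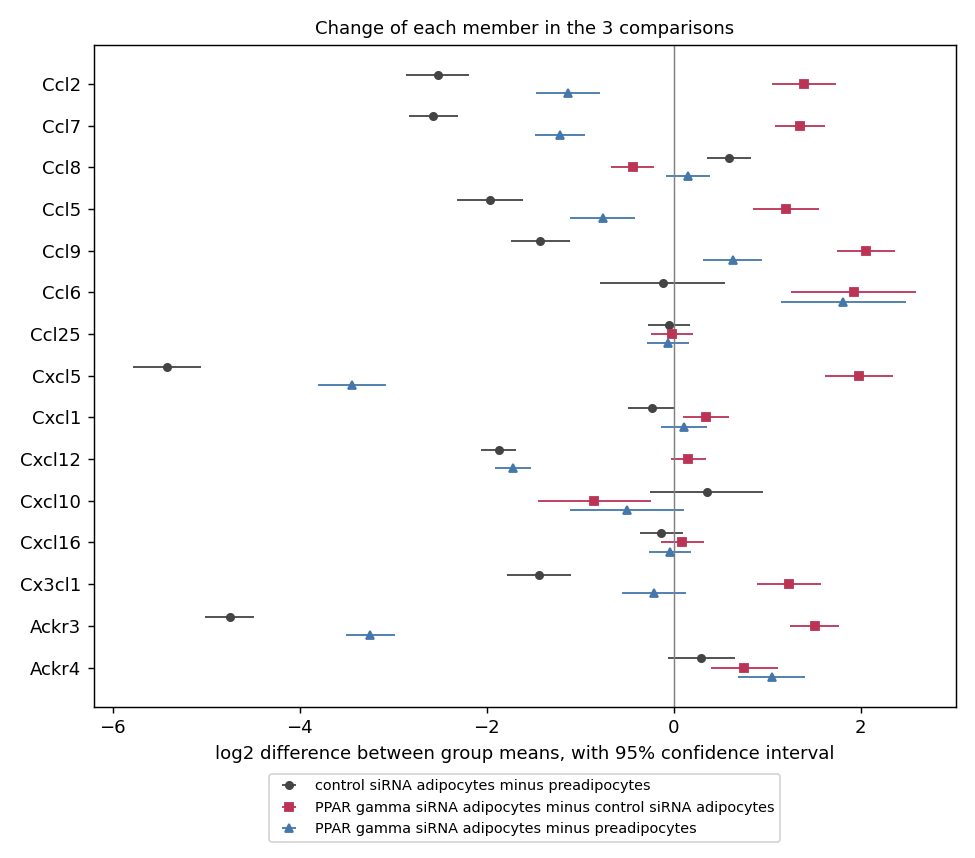
Log2 difference between group means (horizontal axis) with its 95% confidence interval for the 15 described genes, in control siRNA adipocytes minus preadipocytes (circles), PPAR gamma siRNA minus control siRNA (squares) and PPAR gamma siRNA minus preadipocytes (triangles). Cxcl5 at -5.42 and Ackr3 at -4.75 lie farthest to the left, and Ccl9 at 2.06 is the highest of the squares.

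Among the CXC ligands, Cxcl5, a neutrophil chemoattractant that acts through Cxcr2, had the largest change of all 51 genes. It read 9.51, 9.96 and 9.97 in preadipocytes, 4.23, 4.74 and 4.22 with control siRNA, and 6.20, 6.37 and 6.56 with PPAR gamma siRNA. The groups stood well apart, and the control siRNA values lay under the array medians, where a fold can be understated. Cxcl5 was 42.8-fold lower in control siRNA adipocytes than in preadipocytes (log2 change -5.42 ± 0.17, adjusted p = 2.42e-10). PPAR gamma siRNA raised it 3.95-fold (1.98 ± 0.17, adjusted p = 2.71e-06) but left it 10.8-fold below preadipocytes (-3.44 ± 0.17, adjusted p = 3.70e-08).

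Cxcl1, another Cxcr2 ligand, depended on the probe set. The chosen one is of a type (suffix x) whose probes may match other transcripts. It read 7.98, 8.06 and 8.34 in preadipocytes, 7.87, 8.01 and 7.79 with control siRNA, and 8.28, 8.33 and 8.10 with PPAR gamma siRNA. Preadipocytes overlapped both adipocyte groups, and the differentiation change of -0.24 ± 0.11 did not pass the test (adjusted p = 0.113). The siRNA change of 0.35 ± 0.11 passed (adjusted p = 0.0388), but not in 9 of 19 other settings, where its adjusted p reached 0.130. These included a replicate block (adjusted p = 0.0653) and the omission of preadipocytes 2, control siRNA 1 or 3, or PPAR gamma siRNA 1 or 2. The probe set of Cxcl1 without a suffix, looked at after the values were seen, read 7.94, 8.12 and 8.02 in preadipocytes, 6.57, 6.40 and 6.10 with control siRNA, and 7.34, 7.46 and 7.59 with PPAR gamma siRNA. On it the 3 groups did not overlap, with changes of -1.67 ± 0.12 in differentiation (adjusted p = 3.15e-07), 1.10 ± 0.12 with PPAR gamma siRNA and -0.57 ± 0.12 against preadipocytes. The other probe set lay between, at -0.63 ± 0.10 in differentiation and 0.50 ± 0.10 with the siRNA. All 3 probe sets thus had a negative differentiation change and a positive siRNA change, while their sizes differed up to the values given.

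Cxcl12, which holds stem cells and lymphocytes in their niches through Cxcr4 and is a known product of stromal cells, fell in fat cells and, on the chosen probe set, did not come back up. It read 13.46, 13.39 and 13.38 in preadipocytes, 11.54, 11.45 and 11.61 with control siRNA, and 11.58, 11.75 and 11.75 with PPAR gamma siRNA. The preadipocyte arrays lay above all 6 adipocyte arrays, and the adipocyte groups overlapped. The differentiation change was -1.87 ± 0.09 (adjusted p = 6.34e-09), and PPAR gamma siRNA stood at -1.72 ± 0.09 against preadipocytes (adjusted p = 5.14e-08). The siRNA change of 0.16 ± 0.09 did not pass the test (adjusted p = 0.233), with an interval from -0.03 to 0.35. It passed after renewed quantile normalisation (0.25, adjusted p = 0.0453). A second Cxcl12 probe set fell with the siRNA, from 9.45, 9.43 and 9.34 to 8.76, 8.92 and 8.97 (change -0.52 ± 0.09, adjusted p = 0.000679), so that its direction between the siRNAs depends on the probe set.

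Cxcl10, an interferon-induced ligand of Cxcr3, varied widely within the adipocyte groups, with SDs of 0.47 and 0.60. It read 6.78, 6.55 and 6.54 in preadipocytes, 7.43, 6.48 and 7.01 with control siRNA, and 6.70, 5.51 and 6.17 with PPAR gamma siRNA. All 3 groups overlapped. The siRNA change of -0.85 ± 0.28 passed the test (adjusted p = 0.0396), but not in 10 of 19 other settings, among them the omission of any of the 3 preadipocyte arrays, of control siRNA 1 or 3, or of PPAR gamma siRNA 2 or 3, where the adjusted p ranged from 0.0569 to 0.155. Its differentiation change of 0.35 ± 0.28 did not pass (adjusted p = 0.331). Cxcl16, a membrane-bound ligand of Cxcr6, had group means of 6.92 ± 0.02, 6.79 ± 0.15 and 6.88 ± 0.15 (SD, n = 3) that overlapped in all pairs. A second, dimmer Cxcl16 probe set fell in differentiation by 1.00 ± 0.11 (adjusted p = 1.30e-05).

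**Figure D3:**
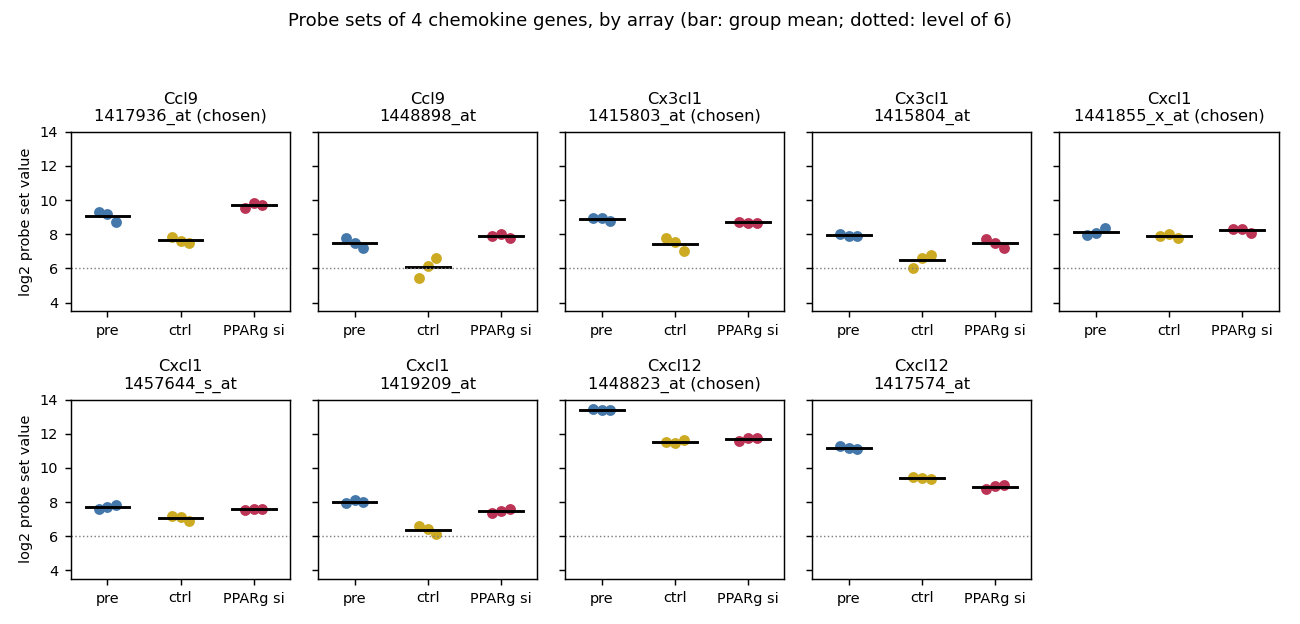
Values by array (points; log2 probe set value on the vertical axis) in the 3 groups for the brighter probe sets of 4 genes, with group means as bars. The 2 probe sets of Ccl9 and of Cx3cl1 keep the same order of groups between preadipocytes and control siRNA, while the chosen Cxcl1 probe set changes by -0.24 where the one without a suffix changes by -1.67.

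Cx3cl1, or fractalkine, is a membrane-tethered ligand of Cx3cr1 that is released by the proteases Adam10 and Adam17. It read 8.97, 8.97 and 8.75 in preadipocytes, 7.76, 7.56 and 7.04 with control siRNA, and 8.74, 8.66 and 8.66 with PPAR gamma siRNA. The control siRNA arrays lay below the 6 others, and the highest PPAR gamma siRNA array was just under the lowest preadipocyte array. Cx3cl1 fell by 1.44 ± 0.16 in differentiation (adjusted p = 1.02e-05) and rose by 1.23 ± 0.16 with PPAR gamma siRNA (adjusted p = 7.49e-05). Against preadipocytes the difference was -0.21 ± 0.16 (adjusted p = 0.365), with an interval from -0.55 to 0.13. A second bright probe set gave -1.45 ± 0.18, 0.99 ± 0.18 and -0.46 ± 0.18 for the same comparisons, and 2 dim ones differed by at most 0.19 in any of the 3. As the mean of all Cx3cl1 probe sets, the first 2 changes were -0.74 and 0.60, both still called.

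Only 2 of the 19 receptors passed the level of 6, and both are atypical. Ackr3, which binds and removes Cxcl12, read 9.52, 9.54 and 9.40 in preadipocytes, 4.54, 4.91 and 4.75 with control siRNA, and 6.11, 6.16 and 6.46 with PPAR gamma siRNA. The 3 groups did not overlap and stood in the same order as for Cxcl5. Ackr3 was 26.9-fold lower in control siRNA adipocytes than in preadipocytes (-4.75 ± 0.12, adjusted p = 4.95e-11), with a control siRNA mean of 4.74 under the array medians, so that the fold may be understated. PPAR gamma siRNA raised it by 1.51 ± 0.12 (adjusted p = 1.61e-06) and left it at -3.24 ± 0.12 against preadipocytes (adjusted p = 3.80e-09). Its only probe set is of a type (suffix s) that may match more than 1 transcript. Cxcl12 and its scavenger Ackr3 thus both fell in differentiation, and Ackr3 alone of the pair rose with the siRNA on the chosen probe sets. Whether the 2 siRNA changes differ from each other was not tested.

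Ackr4, which removes Ccl19, Ccl21 and Ccl25, was highest with PPAR gamma siRNA. It read 5.34, 5.51 and 5.48 in preadipocytes, 6.18, 5.52 and 5.51 with control siRNA, and 6.36, 6.67 and 6.44 with PPAR gamma siRNA. The PPAR gamma siRNA arrays lay above the 6 others, and control siRNA 1 stood apart from the other two of its group. Ackr4 rose by 0.75 ± 0.16 with PPAR gamma siRNA (adjusted p = 0.00403) and stood 1.05 ± 0.16 above preadipocytes (adjusted p = 0.000406). The rise against control siRNA lost its call on the probe set without the x suffix (0.54 ± 0.20, adjusted p = 0.0717), and was 0.42, still called, as the mean of its probe sets.

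The 15 signalling receptors and the atypical Ackr1 and Ackr2 stayed dim in all 3 groups. Over these 17 receptors, which did not pass the level of 6, single arrays ranged from 2.80 to 5.99. No change in any comparison exceeded 0.79, that of the atypical Ackr2, in either direction. Cxcr4, the receptor of Cxcl12, had group means of 2.97, 3.38 and 3.16. Cxcr2, the receptor of Cxcl5 and Cxcl1, had group means of 3.47, 3.79 and 3.74. These values lie under the array medians, and such probe sets give no measure of how much protein or signalling remained. Nearest under the level of 6 were Ccr2, the receptor of Ccl2 and Ccl7, with a highest group mean of 5.98, and the eosinophil chemokine Ccl24 at 5.87. Nearest above it were Ackr4 at 6.49 and Ccl6 at 6.54. The chosen Ccr2 probe set read 5.76 ± 0.03, 5.98 ± 0.01 and 5.85 ± 0.06 (SD, n = 3) in the 3 groups, and its other 3 probe sets had group means between 3.09 and 3.33.

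Among the 19 ligands that did not pass, single arrays ranged from 2.77 to 6.10. The eosinophil chemoattractant Ccl11, or eotaxin, read 4.35, 4.26 and 4.25 in preadipocytes, 3.76, 3.69 and 3.58 with control siRNA, and 4.29, 4.30 and 4.38 with PPAR gamma siRNA. It was the 1 dim gene lower in differentiation (-0.61 ± 0.08, adjusted p = 8.15e-05) and the 1 dim gene higher with the siRNA (0.64 ± 0.08, adjusted p = 9.58e-05). In differentiation, 7 dim genes were higher, by at most 0.79: Ackr2, Ccl22, Ccr2, Ccr4, Cxcl13, Cxcl2 and Cxcl9. With the Actb difference as a covariate, only 1 of the 8 genes higher in differentiation, these 7 and Ccl8, kept its call. With PPAR gamma siRNA against control siRNA Ccr9 was lower (-0.26 ± 0.09, adjusted p = 0.0479), and against preadipocytes Ackr2 and Ccl24 were higher. Under the Actb covariate, 4 members were higher against preadipocytes. Only 2 of the 5 higher without it were among them, Ccl6 and Ackr4, so Ackr2 and Ccl24 lost their calls. The other Ccr9 probe sets, all dim, had means going from 3.40 to 3.48, 3.41 to 3.41, 3.23 to 3.09 and 3.04 to 3.01 between the siRNAs. A second Cxcl15 probe set, whose mean over the arrays was lower than that of the chosen one, fell from 4.86, 5.29 and 4.93 to 3.66, 3.51 and 3.57 in differentiation (-1.44 ± 0.13, adjusted p = 1.68e-06).

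The arrays of 2 groups did not overlap for 22 of the 51 genes in differentiation (61.5% of all genes), for 15 between the siRNAs (44.4% of all genes) and for 16 between PPAR gamma siRNA and preadipocytes (49.8% of all genes). The members' shares were 43.1%, 29.4% and 31.4%. The difference between these shares was not tested, and 36 of the 51 members are dim.

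Many chemokine genes lie side by side in the genome, and their changes are given here in gene order. No test of neighbours was run. The neighbours given here as not called are dim, so that their values do not show that they stayed level. All 51 genes were found by symbol in the RefSeq table, from which only the order was taken. On chromosome 11 the order is Ccl2, Ccl7, Ccl11, Ccl12, Ccl8 and Ccl1. The first 3 fell in differentiation and rose with PPAR gamma siRNA, Ccl8 did the reverse, and Ccl12 (0.24 ± 0.13 and -0.10 ± 0.13) and Ccl1 (0.15 ± 0.13 and -0.06 ± 0.13) were called in neither. Further along are Ccl5, Ccl9, Ccl6, Ccl3 and Ccl4, of which the first 3 rose with PPAR gamma siRNA and the last 2, at -0.17 ± 0.10 and -0.03 ± 0.20, were not called. On chromosome 5, Cxcl5 lies 2 other protein-coding genes away from Cxcl3, which was not called (0.14 ± 0.08 in differentiation). Cxcl2, next to Cxcl1, was dim and higher in differentiation by 0.39 ± 0.09 (adjusted p = 0.00296). In a second stretch of that chromosome, Cxcl9 and Cxcl11 lie on the sides of Cxcl10. Cxcl9 was higher in differentiation (0.67 ± 0.16, adjusted p = 0.00522), and Cxcl11 was not called (-0.05 ± 0.09).

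**Figure D4:**
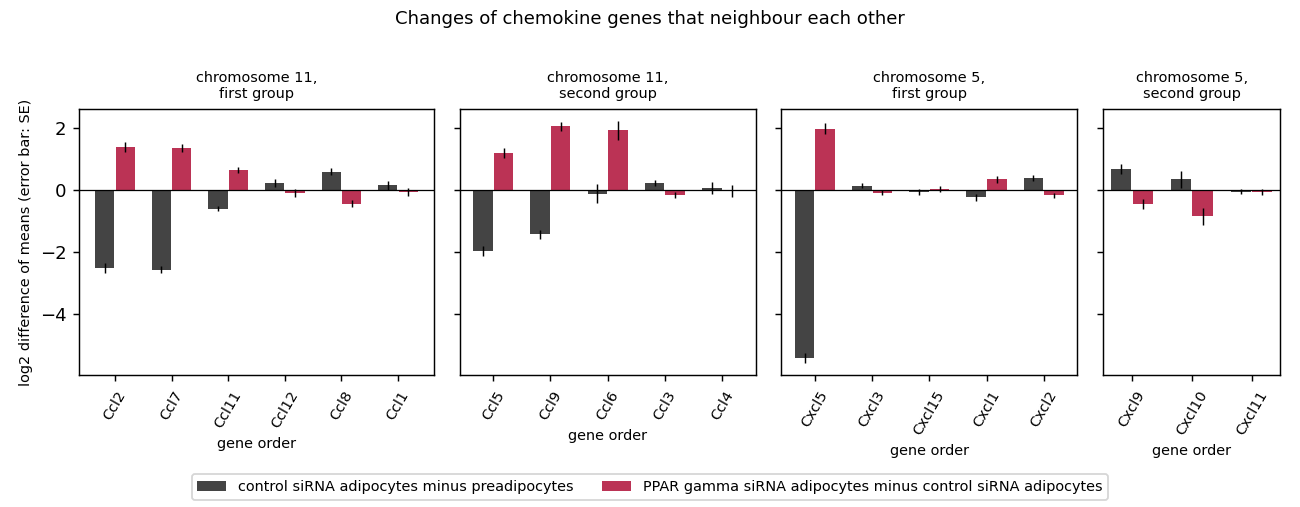
Log2 differences of group means (bars, with SE) for chemokine genes in their order along chromosomes 11 and 5, in control siRNA adipocytes minus preadipocytes (dark) and PPAR gamma siRNA minus control siRNA (red). Ccl2 and Ccl7 have dark bars of -2.52 and -2.57 beside red bars of 1.40 and 1.35, and Ccl3 and Ccl4 stay within 0.23 of 0.

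Genes of the chemokine system that carry other symbols moved separately. Of 11 measured, 3 rose and 4 fell in differentiation (median 0.09, all genes 0.09), and 3 rose and 1 fell with PPAR gamma siRNA (median 0.11, all genes -0.01). Of all genes, 27.1% rose and 24.7% fell in differentiation, and 19.9% rose and 16.1% fell with the siRNA. Rarres2, the precursor of the adipokine and leukocyte attractant chemerin, went from 8.57 in preadipocytes to 13.86 with control siRNA (5.28 ± 0.10, adjusted p = 7.59e-12) and 13.49 with PPAR gamma siRNA. The rise in differentiation was 2.14 with probe sets of types x and s left out. Its siRNA change of -0.37 (adjusted p = 0.0181) reversed to 0.19 with probe sets of types x and s left out, and lost its call when array 2 or 3 of control siRNA or array 3 of PPAR gamma siRNA was omitted (adjusted p between 0.0506 and 0.0654). Ccl27a, a skin chemokine, changed by -1.45 ± 0.15 in differentiation and 1.57 ± 0.15 with the siRNA. Its probe set is of type x, which may match other transcripts, and none remained with types x and s left out. Cd74, the receptor of the cytokine Mif, changed by -1.42 ± 0.10 and 0.80 ± 0.10. Mif itself rose by 1.21 ± 0.11 in differentiation, and by 0.44 as the mean of its probe sets.

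Downstream of the receptors, 38 of 42 listed signalling genes were measured. In differentiation 6 rose and 19 fell (median -0.29, all genes 0.09), where 27.1% and 24.7% of all genes did. With PPAR gamma siRNA 14 rose and 6 fell (median 0.12), where 19.9% and 16.1% of all genes did. Gnai2, a G protein subunit through which chemokine receptors signal, fell by 2.14 ± 0.15 and rose by 1.29 ± 0.15 in the same comparisons. Grk5, a kinase that turns receptors off, changed by -1.66 ± 0.14 and 1.64 ± 0.14. Rgs2, which ends G protein signals, rose by 3.38 ± 0.09 in differentiation and fell by 0.89 ± 0.09 with the siRNA. Gng2, another G protein subunit, changed by 1.35 ± 0.11 and -0.83 ± 0.11, but by -0.46 and 0.33 as the mean of its probe sets.

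Proteases that cut chemokines and the matrix and surface molecules that hold them were mostly lower in fat cells. Of 19 measured, 14 fell and 2 rose in differentiation (median -1.79, all genes 0.09), where 24.7% and 27.1% of all genes did. With PPAR gamma siRNA 9 rose and 2 fell (median 0.38), where 19.9% and 16.1% of all genes did. Mmp3, a stromelysin, was at 9.75 in preadipocytes, 4.86 with control siRNA and 5.17 with PPAR gamma siRNA. Tnfaip6, which binds chemokines and hyaluronan, fell by 4.22 ± 0.10, and the hyaluronan receptor Cd44 by 4.18 ± 0.14. With PPAR gamma siRNA the largest rises were those of Mmp14 (2.38 ± 0.08), Vcan (2.29 ± 0.11) and Mmp2 (1.89 ± 0.10). The 2 that fell were Mmp13 (-2.03 ± 0.12), dim in all groups, and Adam17, which sheds Cx3cl1 (-0.76 ± 0.08, adjusted p = 1.65e-05). Cx3cl1 rose in that comparison, and a link between Adam17 and Cx3cl1 was not tested.

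Upstream, 49 of 53 listed cytokines, receptors and transcription factors that induce chemokine genes were measured. In differentiation 16 rose and 18 fell (median 0.08, all genes 0.09), where 27.1% and 24.7% of all genes did. With PPAR gamma siRNA 17 rose and 6 fell (median 0.07, all genes -0.01), where 19.9% and 16.1% of all genes did. The NF-kappaB inhibitor Nfkbie, itself an NF-kappaB target, went from 8.62 in preadipocytes to 4.28 with control siRNA and 6.35 with PPAR gamma siRNA. With probe sets of types x and s left out, its changes were -2.81 in differentiation and 0.80 with the siRNA. Tlr2, a receptor for bacterial lipoproteins, fell by 3.07 ± 0.15 in differentiation, while Tlr4, the lipopolysaccharide receptor, rose by 1.45 ± 0.10. The transcription factor Cebpd rose by 2.27 ± 0.14 with the siRNA, and by 1.06 as the mean of its probe sets. Against preadipocytes, PPAR gamma siRNA adipocytes had more Fos, a subunit of AP-1 (2.97 ± 0.18), and more of the cytokine Il6 (1.39 ± 0.18).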

How the data were processed

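RNA of 9 samples was hybridised to 1 single-colour array each. The authors deposited log2 values per probe set. Per the submitters' processing notes the tools were affy 1.16.0, RMA and MAS5, with no role given for each, so the background correction behind dim values is not known. The deposited log2 values were used unchanged. One model of all 3 groups was fitted with limma 3.58.1 in R 4.3.3 (lmFit and eBayes), without control probe sets, and p-values were adjusted by Benjamini-Hochberg over 45037 probe sets, with calls at an adjusted p under 0.05. Of these, 34945 carry 1 gene symbol in GEO's platform annotation, which can be old. Genes are named where a member's group mean exceeded 6, or where a list's rule took its leading called genes. Some are named where the text says that they were looked at after their values were seen. Pparg is named as the siRNA target, and some members as nearest the level of 6. Other dim members and cell type markers were named outside these rules. The members and lists were chosen with earlier results of these data known. Replicate numbers do not pair the samples by the labels. The number of arrays, 3 a group, limits the precision. Promoters are from RefSeq, build GRCm38.p6.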

Additional observations from a re-analysis of the deposited data

How the results depend on the processing

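Of 45 changes (15 genes in 3 comparisons), 30 were called, and 25 of these kept their direction and call in all 19 other settings. The other 5 lost the call in some settings and none reversed: Ccl8 in differentiation, Ackr4, Cxcl1 and Cxcl10 between the siRNAs, and Ccl9 against preadipocytes, with values given above. The cause was not tested. The 2 settings that use the Actb difference were chosen after seeing the data.

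Counts moved as follows. Higher genes in differentiation, 8, were 0 at 2-fold or more, 1 with dim probe sets left out, 4 with the Actb covariate (1 of them among the 8) and 5 to 9 with 1 array left out. Lower genes between the siRNAs, 3, were 0 at 2-fold or more, 1 with only the 2 groups compared, 1 without both arrays of highest Actb difference, and 1 to 3 with 1 array left out. Higher genes against preadipocytes, 5, were 2 at 2-fold or more, 3 with dim probe sets left out and 4 with the Actb covariate (2 of them among the 5). With the replicate number as a block, higher and lower counts were 7 and 9 in differentiation, 10 and 3 between the siRNAs, and 5 and 7 against preadipocytes. Deviations of same-numbered arrays correlated between -0.19 and 0.17, and those of differently numbered arrays between -0.22 and 0.29. With 3 arrays a group, these few correlations cannot settle whether same-numbered samples share more than a number.

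All reversals among the 15 genes were of uncalled changes. In differentiation, Ccl25 became 0.17 (quantile) and 0.16 (mean of probe sets), Ccl6 0.0097 and 0.11 (control siRNA array 2 or 3 omitted), and Cxcl16 0.093 (quantile) and 0.13 (Actb covariate). Between the siRNAs, Ccl25 became 0.0042 with control siRNA array 2 or 3 omitted and 0.040 with the covariate, ranged from -0.097 to 0.096 with 1 array left out, Cxcl12 -0.083 (mean of probe sets) and Cxcl16 -0.0093 (quantile). Against preadipocytes, Ccl25 became 0.050 (quantile), 0.054 (mean of probe sets), and ranged from -0.15 to 0.044 with 1 array left out, Cxcl1 -0.19 (mean of probe sets) and -0.57 (types x and s left out), and Cxcl16 0.084 (quantile), 0.042 (without both arrays of highest Actb difference) and 0.13 (covariate), and ranged from -0.11 to 0.042 with 1 array left out. Among other genes, Rarres2 became 0.19 between the siRNAs (types x and s left out), and Gng2 became -0.46 in differentiation and 0.33 between the siRNAs (mean of probe sets). Leaving out types x and s drops Ackr3, which has no other probe set.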
